A study of Mus musculus with 14 samples.

Results

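The Reg family and the antimicrobial genes Retnlb and Ang4 were followed in RNA-seq of mouse colon epithelium. The 7 members, Reg1, Reg3a, Reg3b, Reg3g, Reg4, Retnlb and Ang4, were taken by their gene symbols from the 37680 genes of the count table, and all 7 had a row. The 14 libraries came from 4 groups: 4 WT libraries on water, 4 libraries labelled Smad4 knockout on water, 3 WT libraries after 3 d of 2.5% DSS, and 3 Smad4 knockout libraries after 3 d of 2.5% DSS. DSS, dextran sulfate sodium, is given in the drinking water to injure the lining of the colon, and it had a mass of 40 kD here. In the knockout (Smad4 IEC-KO), a tamoxifen-inducible Cre under the villin promoter (Villin-CreERT2) deleted floxed Smad4 (Smad4 f/f) in the intestinal epithelium after injections on 4 consecutive days. Mice were 8 to 14 wk old, matched for gender and age, and of a background enriched for C57/BL6. The study's treatment scheme shows tamoxifen for Smad4 IEC-KO mice and none for WT mice given DSS, and it does not show WT mice on water, so at least after DSS the loss of Smad4 and the tamoxifen cannot be told apart. The methods name controls beside the mutants where they describe the Cre, without saying whether the WT mice of these libraries carried it. The epithelium of the whole colon was shaken off in EDTA, and crypts were then isolated through a filter. No region of the colon was separated, and the epithelial cell types of this crypt preparation were counted together.

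Reg proteins are small secreted C-type lectins. Reg3b and Reg3g are released into the gut lumen and the mucus, where Reg3g binds the peptidoglycan of Gram-positive bacteria and keeps them at a distance from the epithelium, and their transcription is known to follow IL-22 through STAT3 and bacterial signals through MyD88. Reg4 is known from goblet, enteroendocrine and deep crypt secretory cells of the colon. Retnlb encodes RELM-beta, a goblet cell protein with bactericidal activity that follows IL-4 and IL-13, and Ang4 encodes a ribonuclease of the angiogenin family with microbicidal activity.

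Reg1, Reg3a, Reg3b and Reg3g lay in 1 cluster on chromosome 6 of mm9 that spanned 97.99 kb and held 6 annotated genes, in the order Reg3b, Reg3d, Reg3a, Reg2, Reg1 and Reg3g. Reg3b ran from 78320879 to 78323460 and Reg3g from 78416262 to 78418868, at the opposite ends of the cluster and on opposite strands. Reg3a ran from 78330703 to 78333833 and Reg1 from 78375974 to 78378661. The files give Reg3b as ENSMUSG00000071356, Reg3g as ENSMUSG00000030017, Reg3a as ENSMUSG00000079516, Reg1 as ENSMUSG00000059654, Reg4 as ENSMUSG00000027876, Retnlb as ENSMUSG00000022650 and Ang4 as ENSMUSG00000060615. Reg4 lay on chromosome 3 from 98026079 to 98040671, Retnlb on chromosome 16 from 48816969 to 48819004, and Ang4 on chromosome 14 from 52383553 to 52393265. Each was annotated as protein coding in GENCODE M1, and no other gene overlapped any of them. No stretch of 50 bases of the Reg or Retnlb transcripts was found in a protein-coding transcript of another gene. Of the 660 such stretches of Ang4, 30 were also in Ang5, which had 0 counts in all 14 libraries. Transcripts that are not protein coding were not searched.

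The 250 bases before the annotated starts of Reg3b, Reg3g and Reg4 are shown because Reg3b and Reg3g kept a narrow ratio over the libraries while Reg4 had the opposite order between WT on water and WT after DSS. Capitals mark matches to TATAAA or to the STAT motif TTCNNNGAA on either strand, and the sequences are those of mm9, 5′ to 3′ on the strand of the gene.

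Reg3b, chr6:78320629-78320878, plus strand: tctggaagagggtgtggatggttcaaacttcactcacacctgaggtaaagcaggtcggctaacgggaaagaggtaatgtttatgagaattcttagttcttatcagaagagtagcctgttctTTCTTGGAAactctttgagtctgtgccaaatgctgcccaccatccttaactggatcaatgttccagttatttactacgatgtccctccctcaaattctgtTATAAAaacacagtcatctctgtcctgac

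Reg3g, chr6:78418869-78419118, minus strand: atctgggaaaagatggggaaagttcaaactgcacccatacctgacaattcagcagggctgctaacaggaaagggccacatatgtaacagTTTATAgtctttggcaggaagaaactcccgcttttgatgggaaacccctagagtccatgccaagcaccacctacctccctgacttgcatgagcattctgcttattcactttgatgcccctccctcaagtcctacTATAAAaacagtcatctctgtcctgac

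Reg4, chr3:98025829-98026078, plus strand: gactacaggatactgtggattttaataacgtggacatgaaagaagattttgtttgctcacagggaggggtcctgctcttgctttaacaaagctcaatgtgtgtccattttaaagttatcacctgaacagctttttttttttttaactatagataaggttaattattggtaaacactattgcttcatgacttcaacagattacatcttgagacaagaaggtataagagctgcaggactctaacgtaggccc

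The upstream sequences of Reg3b and Reg3g were identical at 68.4% of aligned positions and shared the last 20 bases before the start, while the other pairs of Reg genes had 40.3% to 47.7%. Their transcripts were identical at 69.0% of positions. TATAAA stood 29 to 24 bases before the start of Reg3b, 27 to 22 before that of Reg3g and 27 to 22 before that of Reg1, and 12.3% of 22380 upstream sequences of this length held it. The STAT motif matched in Reg3b, 129 to 121 bases before the start, and in Ang4, 192 to 184 bases before it, and 6.83% of all upstream sequences held it. The SMAD motif GTCTAGAC, found in 0.143% of all upstream sequences, was in none of the 7 members. A match describes letters and not a bound site.

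Total counts per library ran from 12882827 to 26087231, and mitochondrial genes held 4.05% to 32.8% of them. Levels are given as CPM, counts relative to the library total, scaled by the TMM method of edgeR. Smad4 had 118 to 159 CPM in WT on water, 170.1 to 182 in WT after DSS and 40.4 to 43.9 in Smad4 IEC-KO after DSS. In the group labelled Smad4 IEC-KO on water, replicates 2, 3 and 4 had 37, 46.7 and 35 CPM, and the library labelled replicate 1 had 158, within the range of WT. Fold changes of the members that use that library are therefore given with it and without it. The study's figure legends give 3 replicates for Smad4 IEC-KO on water, where 4 libraries carry that label, without saying which 3 these were. Defining genes of the epithelium were high in all libraries, since the 7 genes Epcam, Cdh1, Vil1, Krt8, Krt18, Krt19 and Cdx2 summed to 11216 to 18195 CPM. The pancreas expresses Reg genes too, and the 16 listed acinar genes summed to 165 to 244 CPM in WT on water, 119.5 to 196 in Smad4 IEC-KO on water, 109 to 156 in WT after DSS and 118 to 153 in Smad4 IEC-KO after DSS. Most of this was the elastase gene Cela1, with group means of 123 to 196 CPM, while the defining genes Prss1 and Ptf1a had 0 counts in all 14 libraries. The part of acinar RNA in the levels of the members was not tested.

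Per kilobase of exon, Reg3b was the most abundant member, with a median of 3137 CPM per kb over the 14 libraries, followed by Reg3g with 1058, Retnlb with 457, Reg4 with 155 and Ang4 with 88.3. Reg3a with 1.67 and Reg1 with 1.49 CPM per kb were far below the others. Reg3b was above Reg3g in 14 of 14 libraries, and the least abundant of the first 5, Ang4, was above Reg3a in 14 of 14 without overlap of their ranges. Other neighbours exchanged places. Reg3g was above Retnlb in 11 of 14 libraries, in 2 of the 4 WT libraries on water and in 3 of 3 after DSS in each genotype. Retnlb was above Reg4 in 13 of 14 libraries, and Reg4 above Ang4 in 11 of 14. Reg3a and Reg1 could not be ordered, with Reg3a higher in 10 of 14. Reg3b and Reg3g together took from 0.0508% of all counts, in Smad4 IEC-KO water replicate 1, to 1.48%, in Smad4 IEC-KO DSS replicate 1.

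**Figure D1:**
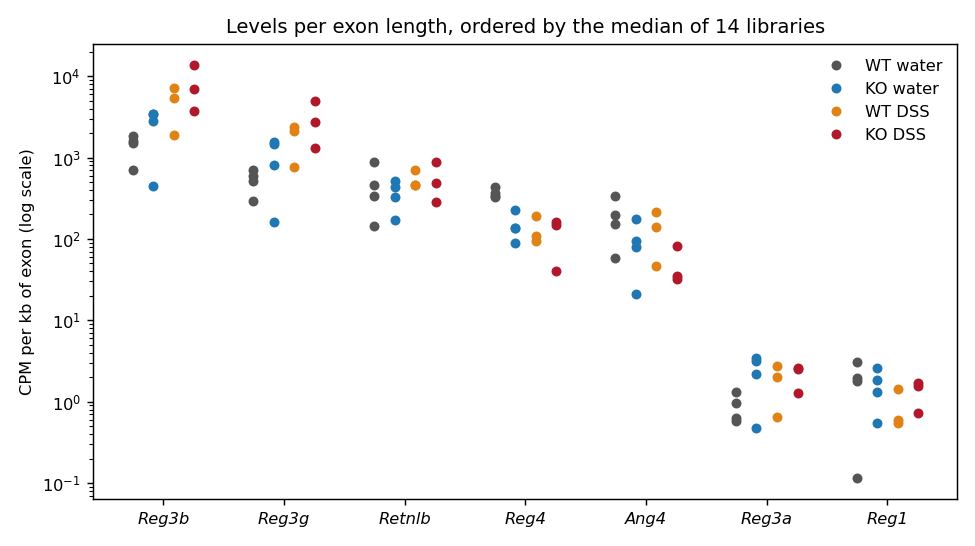
Levels of the 7 members per kilobase of exon (CPM per kb, log axis), ordered by their median over 14 libraries, with 1 point per library and colors for the 4 groups. Reg3b leads with a median of 3137 CPM per kb, and Reg3a and Reg1 lie near 1.67 and 1.49.

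Each gene was tested with the edgeR quasi-likelihood test for 4 pairwise comparisons and for the difference between the genotypes of the response to DSS, with Benjamini-Hochberg adjustment over the 15127 genes that passed the filter and a threshold of 0.05. All 7 members passed the filter. None was called by edgeR in any of these comparisons, against 0.747% of all genes between the genotypes after DSS, 0.00661% between them on water, 0% for DSS against water in WT, 0.00661% for DSS against water in Smad4 IEC-KO and 0.00661% for the difference of the responses. At an unadjusted p under 0.05 there was 1 member after DSS (15.4% of all genes), 1 on water (20.4%), 3 for DSS in WT (24.2%), 2 for DSS in Smad4 IEC-KO (6.37%) and 0 for the difference (7.5%). DESeq2 called 0, 1, 3, 0 and 0 members in the same order, against 3.3%, 5.08%, 11.7%, 0.469% and 0.0529% of all genes. The members whose groups separated were Reg3b, higher after DSS in both genotypes, Reg3g, higher after DSS in WT, and Reg4, lower after DSS in WT and lower in Smad4 IEC-KO on water.

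**Figure D2:**
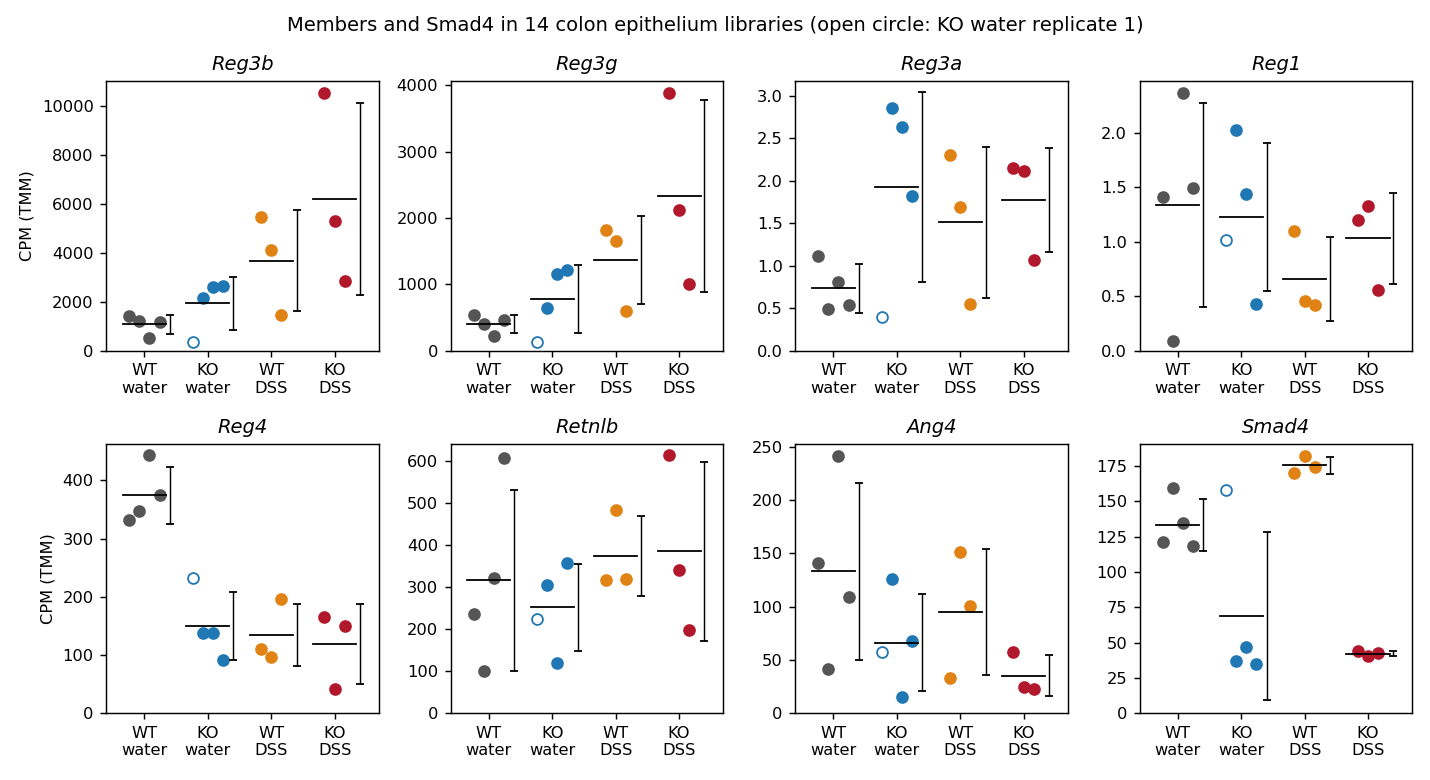
CPM of the 7 members and Smad4 in each library, on linear axes that start at 0. Points are libraries, horizontal lines are group means, bars beside them are SD (n = 4, 4, 3 and 3), and the open circle is Smad4 IEC-KO water replicate 1, which has Smad4 at 158 CPM and the lowest Reg3b of all libraries at 339 CPM.

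Reg3b, the lectin at one end of the cluster, had 1405, 1200.5, 528 and 1162 CPM in the 4 WT libraries on water. It had 5482, 4113 and 1445 CPM in the 3 WT libraries after DSS. The groups did not overlap, but the lowest library after DSS exceeded the highest on water only narrowly, and the other 2 were far above. The mean was 1074 ± 379 (SD, n = 4) on water and 3680.2 ± 2053 (SD, n = 3) after DSS, a log2 fold change of 1.78 (SE 0.43, edgeR adjusted p = 0.088), which was called by DESeq2 (adjusted p = 0.00072), as were 5.47% of all genes in this direction. Over the alternatives the adjusted p ran from 0.00072 to 0.78. The RNA is from bulk epithelium. More or fewer cells of a type and more or less RNA per cell cannot be told apart in this or any later result.

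Reg3g, the Gram-positive-binding lectin at the other end, had 538, 404, 225 and 461 CPM in WT on water. After DSS it had 1822, 1658 and 600.5 CPM, again without overlap and with the same library lowest. The log2 fold change was 1.74 (SE 0.38, edgeR adjusted p = 0.088), also called by DESeq2 (adjusted p = 0.00021), and adjusted p ran from 0.00021 to 0.78 over the alternatives. These 2 members were higher after DSS in WT without overlap, as were 12.8% of all genes tested. The lowest WT library after DSS, replicate 3, was the 1 whose name has the prefix ZH. Among the 2 and 2 WT libraries with the prefix D, the log2 fold changes were 1.88 (SE 0.20, edgeR adjusted p = 0.049) for Reg3b and 1.89 (SE 0.18, adjusted p = 0.045) for Reg3g, and both were called, as were 0.0264% of all genes in the higher direction. Mitochondrial genes held 6.42% to 32.8% of the counts in WT on water and 4.54% to 6.87% after DSS. With that share as a covariate in a model of all 14 libraries, the log2 fold changes were 1.71 (SE 0.70) for Reg3b and 1.78 (SE 0.71) for Reg3g, with edgeR adjusted p of 0.78 each, and its part in the levels was not tested further.

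In Smad4 IEC-KO on water, Reg3b had 339, 2146, 2616 and 2639 CPM, and replicate 1, with Smad4 at the level of WT, was the low library. After DSS it had 10516, 5285 and 2831 CPM, all above the libraries on water. DSS changed it by 1.69 on the log2 scale (SE 0.60, edgeR adjusted p = 0.73) and 1.34 (SE 0.41, adjusted p = 0.71) without replicate 1. Groups without overlap in the higher direction were found for 4.6% of all genes, and for 7.25% without replicate 1. Reg3g had 126, 636, 1149 and 1209 CPM on water and 3874, 2121 and 1001 after DSS. Its lowest library after DSS lay below 2 of the libraries on water, and the log2 fold change was 1.59 (SE 0.63, edgeR adjusted p = 0.76) and 1.23 (SE 0.45, adjusted p = 0.74) without replicate 1. In this genotype no library on water has the name prefix D and all 3 after DSS do, so prefix and DSS cannot be told apart within it. With the prefix as a block in all 14 libraries, the changes were 1.04 (SE 0.87) for Reg3b and 1.28 (SE 0.82) for Reg3g.

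The response to DSS did not differ detectably between the genotypes for either lectin. The difference of the log2 fold changes, Smad4 IEC-KO minus WT, was -0.09 (SE 0.83, edgeR adjusted p = 0.98) for Reg3b and -0.16 (SE 0.83, adjusted p = 0.96) for Reg3g. Without replicate 1 it was -0.44 (SE 0.66, edgeR adjusted p = 0.85) and -0.52 (SE 0.64, adjusted p = 0.83). Errors of this size leave room for differences of more than 1 log2 unit.

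Between the genotypes on water, 3 of the 4 Smad4 IEC-KO libraries were above all WT libraries for both Reg3b and Reg3g and replicate 1 was below all of them. The log2 fold change was 0.85 (SE 0.50, edgeR adjusted p = 0.36) for Reg3b and 0.94 (SE 0.52, adjusted p = 0.32) for Reg3g. Without replicate 1 these became 1.20 (SE 0.31, edgeR adjusted p = 0.16) and 1.30 (SE 0.31, adjusted p = 0.15), with 3 members fully higher (Reg3a, Reg3b and Reg3g) against 7.26% of all genes, and 1 lower (Reg4) against 7.67%. After DSS the genotypes overlapped for these and for the other 5 members, while 21.7% of all genes did not overlap. Reg3b was 0.76 higher in Smad4 IEC-KO on the log2 scale (SE 0.51, edgeR adjusted p = 0.51) and Reg3g 0.78 (SE 0.48, adjusted p = 0.48), and among the libraries with the prefix D the values were 0.38 (SE 0.43) and 0.43 (SE 0.43).

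**Figure D3:**
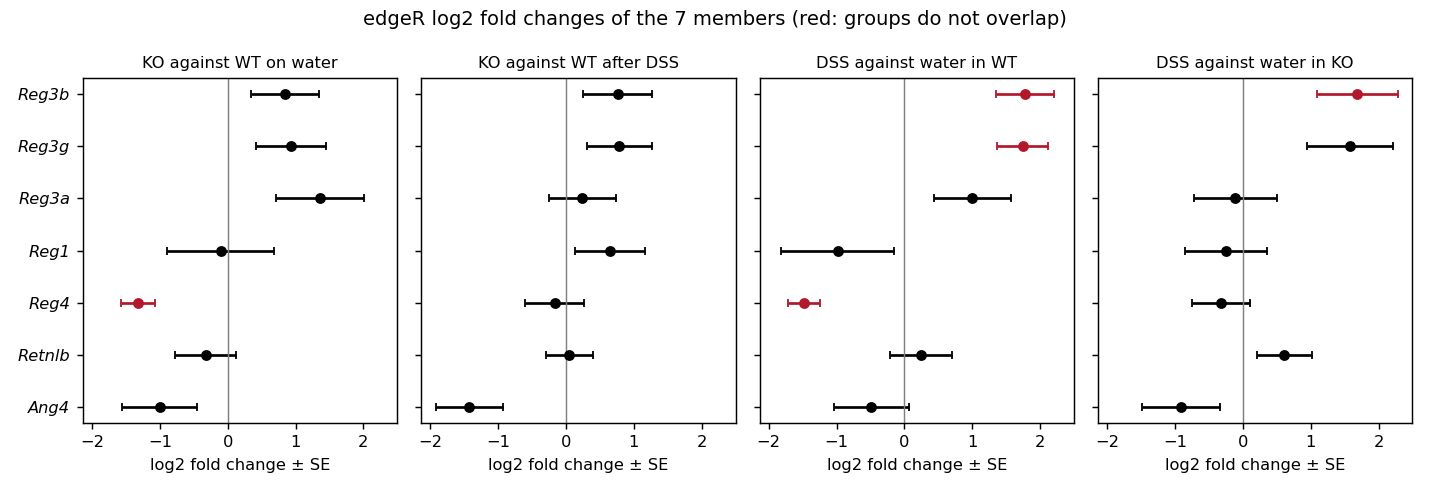
Log2 fold changes of the 7 members with SE from edgeR in the 4 pairwise comparisons, with red marks where the groups do not overlap. Reg3b and Reg3g lie at 1.78 and 1.74 for DSS in WT, and Reg4 at -1.48 there and at -1.32 for Smad4 IEC-KO against WT on water, and no member passed the adjusted threshold.

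Reg3b and Reg3g kept nearly the same ratio. The ratio of their CPM ran from 2.18 to 3.37 over the 14 libraries, with a median of 2.57, while Reg3b itself ranged 31-fold and Reg3g 30.8-fold. The library with the lowest ratio was Smad4 IEC-KO water replicate 4, and the highest was replicate 2 of the same group, so the ratio did not order the groups.

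**Figure D4:**
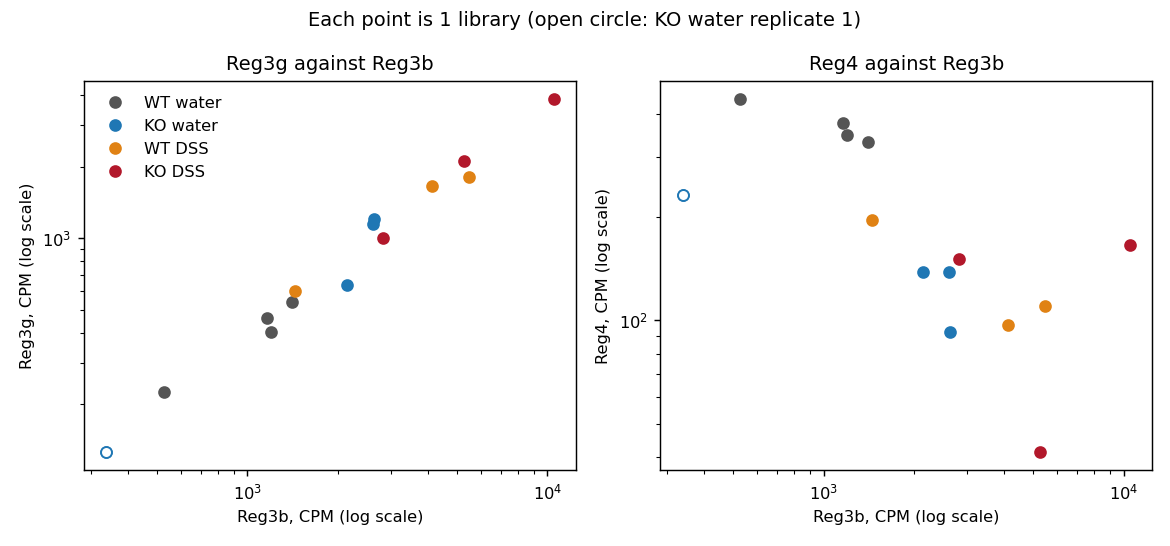
CPM of Reg3g (left) and Reg4 (right) against Reg3b on log axes, with 1 point per library, colors for the groups and an open circle for Smad4 IEC-KO water replicate 1. Reg3g follows Reg3b with a ratio between 2.18 and 3.37, and the 4 WT libraries on water have the highest Reg4, from 332 to 443 CPM.

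The other 2 members of the cluster were near the limit of detection. Reg3a, a further lectin of the Reg3 group, had 5 to 64 counts per library, and Reg1, best known from the exocrine pancreas, had 2 to 38. A count of 2 has a 95% Poisson interval of 0.242 to 7.22, which covers counting error only. Reg3a had 1.11, 0.488, 0.814 and 0.534 CPM in WT on water and 0.396, 2.86, 2.63 and 1.82 in Smad4 IEC-KO on water. The order was that of Reg3b and Reg3g, with replicate 1 lowest and the other 3 above WT. On water it differed by 1.36 on the log2 scale (SE 0.65, edgeR adjusted p = 0.26), and by 1.71 (SE 0.56, adjusted p = 0.20) without replicate 1. Its change with DSS in Smad4 IEC-KO was -0.11 (SE 0.61) and -0.45 (SE 0.45) without replicate 1. After DSS, Reg3a had 2.3, 1.69 and 0.547 CPM in WT and 2.14, 2.12 and 1.07 in Smad4 IEC-KO, and its groups overlapped in all 4 comparisons. Reg1 ranged from 0.0886 to 2.36 CPM, both extremes being WT libraries on water, and its log2 fold changes lay between -0.98 and 0.65 with SE of 0.51 to 0.83. Without replicate 1 the change of Reg1 was -0.017 (SE 0.89) on water and -0.32 (SE 0.67) for DSS in Smad4 IEC-KO. Of the 2 other genes of the cluster, Reg3d had at most 1.65 CPM and Reg2 at most 0.695.

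Reg4, the secretory-cell member outside the cluster, had the opposite order. In WT on water it had 332, 347, 443 and 376 CPM, the 4 highest values of all 14 libraries. In Smad4 IEC-KO on water it had 232, 138, 138 and 92.3 CPM, with replicate 1 highest. Reg4 averaged 374 ± 49.0 CPM (SD, n = 4) for WT on water. The Smad4 IEC-KO mean was 123 ± 26.4 (SD, n = 3) without replicate 1 and 150 ± 58.7 (SD, n = 4) with it. With all 4 libraries of each genotype the groups did not overlap, while 5.21% of all genes were lower without overlap in this comparison. The log2 fold change was -1.32 (SE 0.25), with an unadjusted p of 0.00018 and an edgeR adjusted p of 0.15. DESeq2 called it (adjusted p = 0.00016), with 2.48% of all genes called lower. The call depended on the fit. Without replicate 1 the log2 fold change was -1.60 (SE 0.22, edgeR adjusted p = 0.020), called with 0.0859% of all genes, and with all 14 libraries in 1 model it was -1.32 (SE 0.36, adjusted p = 0.039), called with 3.6% of all genes in this direction. With the mitochondrial percent as a covariate in that model the adjusted p was 0.12. Adjusted p ran from 0.00016 to 0.38 over the alternatives, and Reg4 was called in 8 of 19 fits.

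The genotypes on water share the name prefixes Z and MP. With the prefix Z, Reg4 had 443 CPM in 1 WT library, 138 in Smad4 IEC-KO replicate 2, and 232 in the library labelled Smad4 IEC-KO replicate 1, whose Smad4 was within the range of WT. With the prefix MP, it had 376 CPM in 1 WT library and 92.3 in 1 Smad4 IEC-KO library. These prefixes hold too few libraries for a test. Both WT libraries in these pairs had high mitochondrial shares, 30.6% and 32.8%, and among the Smad4 IEC-KO libraries the share was 5.02%, 8.1% and 21.4%. The part of the prefix and of the mitochondrial share in the level of Reg4 was not tested beyond the fits given above.

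After DSS, Reg4 had 110.4, 96.7 and 196 CPM in WT, all below the 4 WT libraries on water. The mean was 134 ± 53.7 (SD, n = 3), and the log2 fold change was -1.48 (SE 0.24, unadjusted p = 0.0001, edgeR adjusted p = 0.060). Lower values without overlap were found for 11.6% of all genes. DESeq2 called it (adjusted p = 8.8e-07), with 6.27% of all genes called lower. Within the prefix D the log2 fold change was -1.71 (SE 0.13, edgeR adjusted p = 0.024), called with 0.0331% of all genes in this direction. Adjusted p ran from 8.8e-07 to 0.76 over the alternatives, and 5 of 19 fits called it. In Smad4 IEC-KO, Reg4 had 166, 41.2 and 151 CPM after DSS, of which 2 lay within the range on water and 1 below it. The log2 fold change was -0.32 (SE 0.43, edgeR adjusted p = 0.93), and -0.031 (SE 0.44, adjusted p = 0.99) without replicate 1. After DSS the genotypes differed by -0.17 (SE 0.44, edgeR adjusted p = 0.89). The difference between the responses, Smad4 IEC-KO minus WT, was 1.15 (SE 0.54, unadjusted p = 0.051, edgeR adjusted p = 0.64), so a smaller response in Smad4 IEC-KO was not shown. Without replicate 1 it was 1.44 (SE 0.53, unadjusted p = 0.017, edgeR adjusted p = 0.58).

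Retnlb, the goblet cell gene for RELM-beta, varied as much within groups as between them. It had 235, 100.1, 322 and 607 CPM in WT on water, 225, 304, 120.4 and 358 in Smad4 IEC-KO on water, 316, 482 and 319.7 in WT after DSS, and 614, 341 and 198 in Smad4 IEC-KO after DSS. All groups overlapped. The log2 fold changes were -0.33 (SE 0.45) on water, 0.05 (SE 0.34) after DSS, 0.24 (SE 0.46) for DSS in WT and 0.61 (SE 0.41) for DSS in Smad4 IEC-KO, with edgeR adjusted p from 0.72 to 0.96. Without replicate 1 the changes were -0.27 (SE 0.51) on water and 0.56 (SE 0.47) for DSS in Smad4 IEC-KO. The changes with DSS were larger in some fits, which did not call them. In WT, DSS gave 1.25 (SE 0.38, edgeR adjusted p = 0.25) within the prefix D and 1.31 (SE 0.44, adjusted p = 0.76) with the mitochondrial covariate, and in Smad4 IEC-KO it gave 1.69 (SE 0.61, adjusted p = 0.34) with the prefix as a block. Its closest relatives were nearly silent, with Retn and Retnlg detected in 1 and 2 libraries and Retnla in 11, at group means of at most 0.24 CPM.

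Ang4, the microbicidal ribonuclease, had 141, 41.9, 241 and 109 CPM in WT on water and 57.1, 126, 14.9 and 67.6 in Smad4 IEC-KO on water. After DSS it had 33.4, 151 and 101 CPM in WT and 57.6, 25.1 and 23 in Smad4 IEC-KO. The Smad4 IEC-KO means were below the WT means in both conditions, but single WT libraries were as low as Smad4 IEC-KO libraries. The log2 fold change after DSS was -1.43 (SE 0.50, unadjusted p = 0.017, edgeR adjusted p = 0.23), and on water it was -1.0 (SE 0.56, adjusted p = 0.33), or -0.93 (SE 0.64, adjusted p = 0.45) without replicate 1. With no filter on low counts the change after DSS was -1.44 (SE 0.35, edgeR adjusted p = 0.043), the only fit of 18 that called it, with 0.92% of all genes called lower. DSS gave -0.49 (SE 0.56) in WT, -0.91 (SE 0.57) in Smad4 IEC-KO, and -0.98 (SE 0.65) in Smad4 IEC-KO without replicate 1. For Reg3a, Reg1, Retnlb and Ang4 the difference between the responses was -1.12, 0.74, 0.37 and -0.43 with replicate 1 and -1.46, 0.66, 0.32 and -0.49 without it, with edgeR adjusted p of 0.60 or more in each.

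Genes of the pathways known to act on the members were taken as a list of 25 receptors and signalling genes, of which 24 passed the filter. EdgeR called 1 of them, Il17rc, the receptor chain that pairs with Il17ra for IL-17A, which had 182, 221 and 197 CPM in WT and 127, 128 and 135 in Smad4 IEC-KO after DSS. It was lower by 0.62 on the log2 scale (SE 0.10, edgeR adjusted p = 0.033), and in the libraries with the prefix D the adjusted p was 0.090. On water, with replicate 1 included, Il17rc changed by -0.77 (SE 0.33, edgeR unadjusted p = 0.039, adjusted p = 0.22), and the groups overlapped. The difference between its responses to DSS was 0.14 (SE 0.43, edgeR adjusted p = 0.94). The median log2 fold change of the list for DSS in WT was 0.27, against -0.01 over all genes, and on water it was 0.20. On water DESeq2 called Il13ra1, Il6st and Tlr4 higher in Smad4 IEC-KO (DESeq2 adjusted p = 0.0038, 0.0095 and 0.0095), where it called 5.08% of all genes. For DSS in WT, edgeR called 0 of 24, with 11 at an unadjusted p under 0.05, where 24.2% of all genes were. DESeq2 called 8 of 24 higher and 0 lower there, where it called 5.47% of all genes higher, among them Il22ra1, the IL-22 receptor chain of epithelium, and Socs3, a feedback inhibitor of STAT3 (both named after their values were seen). Socs3 had 46.4, 78.1, 45.7 and 51.2 CPM in WT on water and 89.4, 146 and 74.7 after DSS, with 1 library on water above 1 after DSS, and a log2 fold change of 0.90 (SE 0.25, edgeR adjusted p = 0.10). In Smad4 IEC-KO its change with DSS was 1.48 (SE 0.30, edgeR adjusted p = 0.29). DESeq2 called it there (DESeq2 adjusted p = 0.0014), where it called 0.469% of all genes. The groups did not overlap, as for 4.6% of all genes in the higher direction. Both fits include Smad4 IEC-KO water replicate 1, which had 27.3 CPM of Socs3, the lowest of its group (42.5, 73 and 66.8 in the others). Extl3, described as a receptor of Reg proteins, ranged from 29.6 to 53.4 CPM over the libraries and was not called by edgeR or DESeq2. The cytokine Il22 itself was detected in 2 of 14 libraries.

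Among 36 other antimicrobial and barrier genes of the epithelium, 29 passed the filter. After DSS, edgeR called 2 higher and 1 lower in Smad4 IEC-KO, with a median of 0.15 against 0.00 over all genes. S100a8 and S100a9, the subunits of calprotectin that neutrophils also hold in large amounts, rose by 3.21 (SE 0.41, edgeR adjusted p = 0.010) and 3.06 (SE 0.54, adjusted p = 0.043) on the log2 scale, from at most 1.56 CPM in WT to 7.1 to 14.4 CPM for S100a8, and among the libraries with the prefix D the adjusted p of S100a9 was 0.11. Zg16, a lectin of goblet cells that aggregates Gram-positive bacteria, fell by 1.10 (SE 0.11, edgeR adjusted p = 0.0038), from 1156, 1389 and 1309 CPM to 599, 578 and 621. On water Zg16 had 1206, 2124, 762 and 1253 CPM in WT, and 1612, 541, 390 and 670 in Smad4 IEC-KO, with replicate 1 highest. With replicate 1 included, the genotypes differed there by -0.73 (SE 0.42, edgeR adjusted p = 0.34). The difference between its responses to DSS was -0.37 (SE 0.55, edgeR adjusted p = 0.86). In the other pairwise comparisons edgeR called 0 of 29. At an unadjusted p under 0.05 there were 5 on water (20.4% of all genes), 12 for DSS in WT (24.2%) and 7 for DSS in Smad4 IEC-KO (6.37%). DESeq2 called 2, 8 and 1, against 5.08%, 11.7% and 0.469% of all genes. For DSS in WT these were Lcn2, Nos2, Duox2, Ltf, Dmbt1 and Tac1, higher, and Sprr2a2 and Defb45, lower.

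Markers of the cell types that could carry the members were read beside them. Of 12 goblet and deep crypt secretory genes, edgeR called 2 lower after DSS in Smad4 IEC-KO, Fcgbp (log2 fold change -1.15, SE 0.12, edgeR adjusted p = 0.0041) and Zg16. On water Fcgbp had 1901, 3378, 2053 and 2834 CPM in WT, and 2703, 1094, 1158 and 1128 in Smad4 IEC-KO, with replicate 1 highest. With replicate 1 included, Fcgbp differed there by -0.74 (SE 0.33, edgeR adjusted p = 0.23). The difference between its responses to DSS was -0.42 (SE 0.42, edgeR adjusted p = 0.80). In the other pairwise comparisons edgeR called 0 of 12. At an unadjusted p under 0.05 there were 2 on water (20.4% of all genes), 5 for DSS in WT (24.2%) and 2 for DSS in Smad4 IEC-KO (6.37%). DESeq2 called 0, 3 and 0, against 5.08%, 11.7% and 0.469% of all genes. The 3 for DSS in WT were Spink4 (DESeq2 log2 fold change -0.82), Spdef (-1.03) and Cd24a (-0.69), all lower. The list's median was -0.15 after DSS, -0.25 on water and -0.21 for DSS in WT, where Reg4 had -1.48, and its summed level was 13395 to 25278 CPM in WT and 14109 to 17713 in Smad4 IEC-KO on water. After DSS it was 16017 to 17196 CPM in WT and 13576 to 13768 in Smad4 IEC-KO, without overlap. Of 9 enteroendocrine genes, edgeR called 0 in any comparison, DESeq2 called 1 after DSS and 1 for DSS in WT, and 0 on water and 4 for DSS in WT had an unadjusted p under 0.05, with a median of 0.11 on water and -0.43 for DSS in WT. Of 8 colonocyte genes, edgeR called 3 lower after DSS in Smad4 IEC-KO (Car4, Aqp8 and Krt20), with a median of -0.46. On water edgeR called 0 of 8, with 4 at an unadjusted p under 0.05 and a median of -0.40, and DESeq2 called 2 lower (Car1 and Cdhr5). For DSS in WT edgeR called 0 and DESeq2 1 higher and 2 lower, with 3 at an unadjusted p under 0.05, and for DSS in Smad4 IEC-KO the numbers were 0, 0 and 1, with 3. Of 5 tested fibroblast genes, edgeR called 3 higher in Smad4 IEC-KO than in WT after DSS (Col1a1, Col1a2 and Col3a1). The list summed to at most 11.7 CPM in WT and 15.9 to 21 in Smad4 IEC-KO after DSS. On water the fibroblast list summed to 6.19 to 10.8 CPM in WT and 12.1 to 36.1 in Smad4 IEC-KO, without overlap. EdgeR called 0 of 5 there, with 3 at an unadjusted p under 0.05, and DESeq2 called Dcn higher (log2 fold change 3.29, adjusted p = 0.00017). For DSS in either genotype edgeR and DESeq2 called 0 of 5, with 0 at an unadjusted p under 0.05 by edgeR. Myeloid genes summed to 55.9 to 128 CPM, with the neutrophil gene Elane at 0 counts, and lymphoid genes to 10.6 to 56.8 CPM, and edgeR called 0 of their 7 and 10 tested genes. At an unadjusted p under 0.05 there were 0 myeloid genes in any comparison and 1 lymphoid gene each after DSS and for DSS in WT, and DESeq2 called 1 lymphoid gene, for DSS in WT. The part of these cells in the levels of the members was not tested.

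Of the remaining lists, edgeR called 0 of 5 Paneth cell, 0 of 4 pancreatic acinar, 0 of 6 distal Hox, 0 of 7 epithelial and 0 of 3 other Reg, resistin and angiogenin family genes tested, in any comparison. For DSS in WT, the numbers at an unadjusted p under 0.05 were 2, 3, 0, 1 and 2 in this order, and DESeq2 called 0, 2, 0, 1 and 1. Between the genotypes after DSS, DESeq2 called the Paneth cell gene Mmp7 higher in Smad4 IEC-KO (log2 fold change 1.20, adjusted p = 0.0016). It called Hoxa13 lower there (-0.41, adjusted p = 0.037), where 3.3% of all genes were called. On water it called the epithelial gene Cdh1 higher in Smad4 IEC-KO (0.46, adjusted p = 0.032), where 5.08% were. Defensins of Paneth cells were nearly confined to 1 library. The 7 listed defensin genes had 750 counts in WT water replicate 1, 1 count in Smad4 IEC-KO DSS replicate 1 and 0 elsewhere, and Lyz1 was highest in the same library at 6.4 CPM. WT water replicate 1 had Reg3b at 1405 and Reg3g at 538 CPM, the highest of its group. Without it, the log2 fold changes for DSS in WT were 1.93 (SE 0.48) for Reg3b and 1.90 (SE 0.41) for Reg3g.

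Over the 14 libraries, the genes with the most similar pattern of log2 CPM to each member were read as a description of these libraries, which share the groups and their differences in depth. For Reg3b they were Il4ra (r = 0.91), Ppapdc1b (0.91) and Arl1 (0.90), and for Reg3g they were Il4ra (0.94), Tifa (0.91) and Cxcl1 (0.91), all below the r of 0.99 between Reg3b and Reg3g. Il4ra, the receptor chain shared by IL-4 and IL-13, was named for its likeness to Reg3b and Reg3g, themselves higher after DSS in WT. Its own change with DSS in WT is therefore not a separate result. It had 35.1 to 52.4 CPM in WT on water and 61.4 to 75.8 after DSS without overlap, as for 12.8% of all genes in the higher direction. The log2 fold change was 0.69 (SE 0.15, edgeR adjusted p = 0.088). For Retnlb, whose known inducers signal through the Il4ra chain, the nearest genes were Card10 (0.85), Ripk2 (0.83) and Dnajb11 (0.83). Reg4 was nearest to Oscp1 (0.89), 1190002H23Rik (0.87) and Pbld1 (0.87), and its r with Reg3g was -0.70. Ang4 was nearest to Gm11131 (0.92), and Reg3a and Reg1, at their low counts, to Pion (0.92) and Tipin (0.85).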

How the data were processed

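RNA was taken from colonic epithelium of mice, 14 samples in 4 groups, and polyA-selected libraries were read as 150-bp pairs. Per the labels and the study's methods, the authors aligned reads to mm9 with HISAT2 and deposited raw gene counts from featureCounts; strand setting and treatment of reads with several matches are not given in the sources used here. Groups follow the labels, which do not say whether replicates were separate mice, so p-values measure the spread between these libraries.

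Genes that reached 10 counts in 3 or more libraries (15127 of 37680; 14001 had no count) were tested with edgeR 4.0.16 (TMM, quasi-likelihood, R 4.3.3) in 4 pairwise fits of 2 groups and, for the difference of the responses, in all 14 libraries, with Benjamini-Hochberg adjustment at 0.05. DESeq2 1.42.0, other scalings, filters, blocks and single libraries left out were alternatives, and the mitochondrial covariate was added after seeing the data. The edgeR steps were tested on simulated data. CPM are TMM-scaled. Poisson intervals are 95% and cover counting error only. Total counts were 12882827 to 26087231 per library.

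Library names carry prefixes (D, Z, MP, MS, ZH) whose meaning the labels do not give. Sequences and coordinates are from mm9 with GENCODE M1, and identities were computed with Biopython 1.88. Members and lists were chosen with earlier results of these data known, and all but 2 of 185 listed genes matched a row. Named genes are the members, list genes called by edgeR or at 0 counts, and the 3 genes most correlated with each member (log2 CPM, prior count 2). Genes named outside this rule, such as Socs3, Il22ra1, Extl3 and Il22, were chosen after their values were seen.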

Additional observations from a re-analysis of the deposited data

Results flagged for a closer look

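The summed level of the lymphoid genes in the 4 libraries labelled Smad4 IEC-KO on water had 1 library far from the others: replicate 4 had 56.8 CPM, and the gap to the nearest other library was 0.936 of the whole range, above Dixon's critical value for 4 samples. This was 1 of 40 groups of 4 examined, and chance gives about 1 in 20. In that library Reg3b had 2639 CPM, Reg3g 1209 CPM and Reg4 92.3 CPM, the first 2 being the highest and the last the lowest of its group.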

How the results depend on the processing

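Of 639 values of the members under the alternatives, 567 kept their direction and side of the threshold, 22 passed it newly and 50 changed sign, and the cause was not tested. Between the genotypes after DSS, 113 genes were called, and 499 by DESeq2, 345 with no filter (with 1 member called, Ang4), 57 with the replicate block, 42 within the name prefix D, 2 in 1 model of all 14 libraries, 1 with the prefix as a block, 2 with the mitochondrial covariate, 8 in the model of the other 13 libraries, and 27 to 96 with 1 library left out. On water 1 gene was called, and 768 by DESeq2, 55 with no filter, 473 with the replicate block, 1276 in 1 model, 2018 with the prefix block, 8 with the mitochondrial covariate, 1151 in the model of 13, and 1 to 1740 with 1 library left out (1740 without Smad4 IEC-KO water replicate 4 and 13 without replicate 1). Reg4 was the 1 member called by all of these but the mitochondrial covariate, and 0 to 1 member was called with 1 library left out. For DSS in WT 0 genes were called, and 1777 by DESeq2, 457 with no filter, 54 with the replicate block, 9 within the prefix D, 2 with the prefix block and 0 to 418 with 1 library left out (418 without WT water replicate 2), and the first 4 of these fits called 3 members, Reg3b, Reg3g and Reg4, and leaving out 1 library 0 to 1. For DSS in Smad4 IEC-KO 1 gene was called, and 71 by DESeq2, 19 with no filter, 15 with the replicate block, 10 in 1 model, 7 with the mitochondrial covariate, 5 in the model of 13 and 1 to 3 with 1 library left out. For the difference of the responses 1 gene was called, and 8 by DESeq2, 2 with no filter and 1 to 5 with 1 library left out.

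No member was called in the main edgeR fits, so sign changes could only concern values that were not called there. After DSS, Reg3a went from 0.24 to -0.16 within the prefix D and -0.17 with the prefix block (-0.16 to 0.68 with 1 library left out), Reg4 from -0.17 to 0.21 and 0.20 (-0.48 to 0.24), and Retnlb from 0.05 to -0.051 and -0.055 and to -0.085 with the replicate block (-0.46 to 0.36). On water, Reg1 went from -0.10 to 0.32 with the mitochondrial covariate (-0.50 to 0.32 with 1 library left out) and Retnlb from -0.33 to 0.43 (-0.62 to 0.20). For DSS in WT, Ang4 went from -0.49 to 0.015 within the prefix D, 0.010 with the prefix block and 0.15 with the covariate, Reg1 from -0.98 to 0.034 and 0.038 in the first 2 of these, and Retnlb ranged from -0.050 to 0.77 with 1 library left out. For DSS in Smad4 IEC-KO, Reg1 went from -0.24 to 1.52 with the prefix block (-0.52 to 0.10 with 1 library left out), Reg4 from -0.32 to 0.081 (-0.64 to 0.089), and Reg3a from -0.11 to 0.098 with the replicate block (-0.45 to 0.15). For the difference of the responses, Retnlb went from 0.37 to -0.33 with the covariate (-0.15 to 0.68 with 1 library left out), and the ranges with 1 library left out were -0.71 to 0.31 for Reg3b, -0.74 to 0.20 for Reg3g and -0.98 to 0.087 for Ang4.

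The replicate numbers share only a number: deviations of same-numbered libraries correlated between -0.08 and 0.35. With the replicate block Reg4 on water had an edgeR adjusted p of 0.041, and Reg3b, Reg3g and Reg4 for DSS in WT had 0.029. Reg1 and Reg3a are limited by counts of 2 to 64, and groups of 3 or 4 by their spread.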

Other observations

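Pla2g2a, a secreted phospholipase with bactericidal activity that is disrupted in some mouse strains including C57BL/6, split the libraries across the groups. It had 36.9 to 84.3 CPM in 5 libraries, which were WT water replicate 1, Smad4 IEC-KO water replicates 2 and 3, WT DSS replicate 3 and Smad4 IEC-KO DSS replicate 3. The other 9 libraries had 713 to 3008 CPM, and each of the 4 groups had libraries on both sides. Reg3b ran from 1405 to 2831 CPM in the 5 libraries, and from 339 to 10516 CPM in the 9. These ranges pool water and DSS. After DSS the library with low Pla2g2a had the lowest Reg3b of its group, 1445 against 4113 and 5482 CPM in WT. In Smad4 IEC-KO it was 2831 against 5285 and 10516 CPM, and Reg3g was lowest in the same libraries. On water the WT library with low Pla2g2a had the highest Reg3b of its group. Those of Smad4 IEC-KO on water had 2146 and 2616 CPM, between 339 and 2639. A link was not tested.

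Reg3d, between Reg3b and Reg3a in the cluster, had 5, 7, 0 and 0 counts in WT on water, 0, 15, 23 and 0 in Smad4 IEC-KO on water, 36, 12 and 3 in WT after DSS and 25, 33 and 9 in Smad4 IEC-KO after DSS. Reg2 had at most 13 counts, in Smad4 IEC-KO water replicate 4, and 0 in 9 of 14 libraries.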
